A study of Mus musculus with 11 samples.

Results

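Chromatin accessibility around the starts of 5 genes of ionotropic glutamate receptors, Gria1, Gria2, Grin1, Grin2a and Grin2b, was read from 11 peak lists of mouse dentate gyrus. The genes were chosen by name and a peak belonged to a gene when it lay within 50 kb of the start of transcription, whose position in the mouse genome build mm9 is known here to 1 kb. The 5 windows held 214 of the 497658 peaks of all lists. Overlapping peaks of different lists (1 bp or more) were joined into regions, which gave 46 regions in the 5 windows out of 128823 in the genome. Gria2 had 14 of these regions, Grin1 11, Grin2a 9, Grin2b 7 and Gria1 5.

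In ATAC-seq a transposase cuts accessible DNA and tags it, and peaks are called where such cuts are frequent. The tissue came from C57BL/6 mice aged 8 weeks, and all of them had received AAV (adeno-associated virus) in the dentate gyrus. In shRNA-Ctrl the virus expressed a control hairpin RNA, and in shRNA-cFos one against c-Fos, which pairs with Jun proteins to form AP-1. The lists of E0 are named sham, and E1 is taken as the state after the neuronal activation that the study examined, since the labels do not spell it out. Of the 11 libraries, each from 1 mouse, 3 were of shRNA-Ctrl at E0 and 3 at E1, and of shRNA-cFos 3 were of E0 and 2 of E1. The microdissected tissue holds all its cell types and both infected and uninfected cells, so a change in the number of cells of a type and a change of accessibility within them cannot be told apart. The lists name no genes, and markers of the granule neuron were not read, so the tissue label was not tested. Lists held 25145 to 78349 peaks on chromosomes 1 to 19 and X, and read depth is unknown. The 3 longest lists were shRNA-Ctrl E1 replicates 1 and 3, whose names also differ in form from the other 9, and shRNA-cFos E0 replicate 2. Values are therefore given as deposited and with each list reduced to the 25145 peaks of highest score, called equal list length.

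Ionotropic glutamate receptors are ligand-gated cation channels that carry fast excitatory transmission, which granule neurons of the dentate gyrus receive from the entorhinal cortex. AMPA receptors are assembled from subunits such as GluA1 (Gria1) and GluA2 (Gria2), and GluA2 in its RNA-edited form keeps calcium out of the channel. NMDA receptors need GluN1 (Grin1) and combine it with GluN2 subunits. GluN2B (Grin2b) prevails early in development, while GluN2A (Grin2a) becomes more abundant with maturation.

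RefSeq promoter sequences (build GRCm38.p6) were at hand for 2 of the 5 genes, Gria2 and Grin1. They are shown because both genes had a peak within 1 kb of the start in every library and because the shRNA targets a protein that binds a known motif. Each run is the 250 bases before the annotated start, on the minus strand, at chr3:80802836-80803085 for Gria2 and at chr2:25319188-25319437 for Grin1. Capitals mark CG dinucleotides.
Gria2: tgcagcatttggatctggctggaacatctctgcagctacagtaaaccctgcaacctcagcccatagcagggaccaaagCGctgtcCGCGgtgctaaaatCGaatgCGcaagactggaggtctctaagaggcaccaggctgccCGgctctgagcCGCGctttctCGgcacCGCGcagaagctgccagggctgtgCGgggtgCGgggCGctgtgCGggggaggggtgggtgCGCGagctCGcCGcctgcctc
Grin1: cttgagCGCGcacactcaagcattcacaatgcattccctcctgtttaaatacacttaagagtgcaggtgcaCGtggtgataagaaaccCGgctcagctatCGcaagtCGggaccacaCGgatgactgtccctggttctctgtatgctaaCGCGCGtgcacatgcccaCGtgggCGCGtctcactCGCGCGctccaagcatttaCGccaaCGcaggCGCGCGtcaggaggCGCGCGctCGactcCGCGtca

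The Grin1 sequence held 27 CG dinucleotides and the Gria2 sequence 19, against a median of 6 over all 32851 promoters of the table. The AP-1 motif TGANTCA, searched on both strands, was in neither sequence and was in 6.75% of all promoters. The cAMP response motif TGACGTCA (1.55% of promoters) and GGGCGG (32.7%), the core of the GC box, were also in neither. Grin1 held the E-box CACGTG at -181 to -176 and at -85 to -80 from the start, a motif of 6.02% of promoters. A match of letters is not a binding site, and these coordinates belong to another build than the peaks.

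A peak recurred at or near each of the 5 starts, but its place and reach differed between genes. At Gria1 a single narrow peak lay over the start in 9 of 11 libraries, with a width of 378 to 975 bp (median 564). The libraries without it were shRNA-Ctrl E0 replicate 2, with 28391 peaks in all, and shRNA-Ctrl E1 replicate 1, the longest list with 78349. The merged region was chr11:56824479-56825529 (mm9). At Gria2 the peak was broad and present in all 11 libraries, and 1 merged region of 4587 bp, chr3:80603583-80608169, covered the start. Most of it lay on the side of the gene body, to 3.42 kb from the start. The peaks of 1 library covered 1027 to 4417 bp of it, the least in shRNA-cFos E0 replicate 3.

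Grin1, which encodes the subunit that every NMDA receptor contains, also had a peak within 1 kb of its start in all 11 libraries, in the merged region chr2:25173278-25175116. That region was 1839 bp wide and reached 1.72 kb into the gene body. Grin2a had such a peak in 10 libraries, all but shRNA-Ctrl E0 replicate 1, in the region chr16:9992343-9996288 of 3946 bp. Grin2b differed, because no library had a peak over the given start. Its recurrent region, chr6:136121849-136124072, began 0.85 kb away and ended 3.07 kb away, on the side opposite to the gene body. It was called in all 11 libraries and split into a pair of peaks in 10 of them. Only 3 libraries had a Grin2b peak within 1 kb of the start, and all 11 had one within 3 kb.

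**Figure D1:**
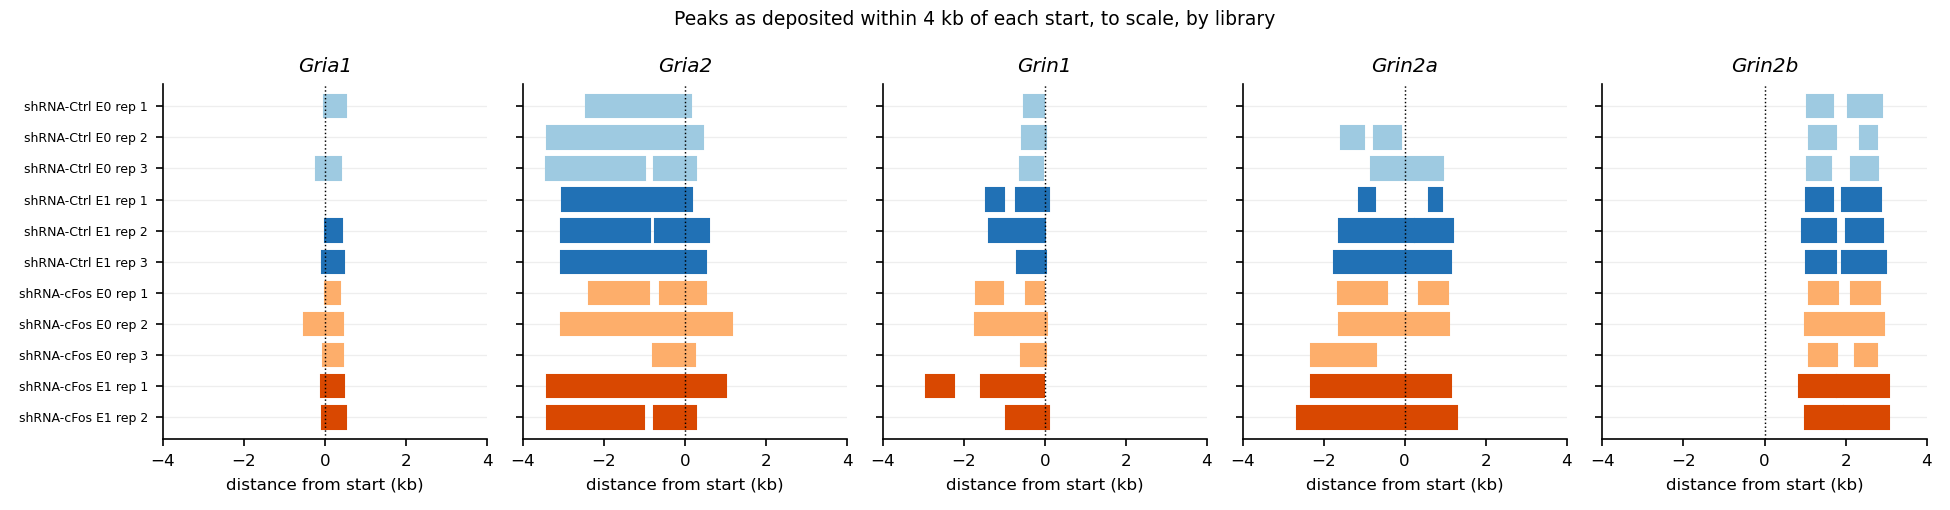
Peaks as deposited within 4 kb of the 5 starts, 1 row per library, coloured by group, with distance from the start in kb on the x axis (higher coordinates to the right, dotted line at the start). Peaks recur at or beside the start at Gria1, Gria2, Grin1 and Grin2a, where the Grin2a peak of shRNA-cFos E0 replicate 3 ends at -716 bp, while the Grin2b peaks begin 0.85 kb or more to the right of it.

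The length of DNA under promoter peaks was read in each library and was not tested. At the Grin2a promoter peaks covered 0, 1241 and 1765 bp in shRNA-Ctrl at E0 and 718, 2797 and 2838 bp at E1, against 1927, 2720 and 1595 bp in shRNA-cFos at E0 and 3475 and 3946 bp at E1. Both shRNA-cFos E1 libraries thus exceeded the other 9, and the groups of shRNA-Ctrl overlapped. At Grin1 the covered length was 557 ± 65.4 bp (SD, n = 3) in shRNA-Ctrl at E0 and 1092 ± 345 bp (n = 3) at E1, without overlap, since the 3 E0 libraries had 483, 607 and 581 bp and the E1 libraries 1252, 1329 and 696 bp. In lists of equal length the E1 libraries had 817, 610 and 696 bp, and the lowest of them was next to the 607 bp of E0. In shRNA-cFos the Grin1 peaks covered 1101, 1745 and 635 bp at E0 and 1548 and 1080 bp at E1, which overlap. The Gria2 promoter covered 3297 ± 635 bp (n = 3) in shRNA-Ctrl at E0 and 3439 ± 197 bp (n = 3) at E1, a difference within the spread. Grin2b peaks covered 1492, 1076 and 1272 bp in shRNA-Ctrl at E0 and 1632, 1729 and 1814 bp at E1. In shRNA-cFos they covered 1398, 1958 and 1229 bp at E0 and 2194 and 2045 bp at E1. As deposited the states thus did not overlap in either shRNA group. At equal list length the shRNA-Ctrl E1 libraries had 962, 1729 and 1079 bp, which overlap the unchanged E0 values. The shRNA-cFos states stayed apart, with 697, 1958 and 1229 bp at E0 and 2194 and 2045 bp at E1.

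The strength of a promoter peak was read as the percentile of its score among all peaks of the same list, with 0 for no peak. It was taken from the merged promoter region, which for Grin2b reaches 3.07 kb from the start, and most libraries had no Grin2b peak within 1 kb. Gria2 had the strongest peak of the 5 genes, with a mean of 88.4 over 11 libraries. Grin2b followed with 63.7, then Grin1 with 59.8, Grin2a with 58.4 and Gria1 with 41.7. The last 4 overlapped widely, since Gria1 ranged from 0 to 67.0 and Grin2a from 0 to 91.6. With lists of equal length Gria2 was again first with 80.6 and Gria1 last with 21.4, and Grin2b (47.1), Grin2a (40.2) and Grin1 (38.8) lay between. A longer list adds weak peaks below a strong one and so raises its percentile, which is why both values are given. The cut to equal length removes more peaks from longer lists and lowers the percentile of a kept peak more there. Neither value is therefore free of list length.

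The Gria1 percentiles were 49.6, 0 and 61.3 in shRNA-Ctrl at E0 and 0, 36.3 and 47.2 at E1. In shRNA-cFos they were 55.9, 67.0 and 61.9 at E0 and 58.7 and 20.9 at E1. E0 and E1 overlapped in both shRNA groups. The Gria1 peak was kept at equal list length in 5 of 6 E0 libraries and in 2 of 5 E1 libraries, at 10.1 and 20.7. The cut fell at a higher score in longer lists. A Gria1 peak with a score of 107.72 was dropped in shRNA-Ctrl E1 replicate 3, while one of 95.09 was kept in shRNA-Ctrl E0 replicate 1.

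The Gria2 percentiles were 92.8, 91.1 and 86.9 in shRNA-Ctrl at E0 and 93.1, 75.6 and 93.3 at E1, against 85.3, 91.0 and 92.4 in shRNA-cFos at E0 and 87.0 and 84.1 at E1. As deposited these groups did not separate by state. In lists of equal length the shRNA-Ctrl groups did not overlap, with 92.8, 89.9 and 84.6 at E0 and 78.5, 65.6 and 79.8 at E1. In shRNA-cFos they were 80.6, 73.5 and 91.5 at E0 against 75.0 and 74.3 at E1, which overlap. With the cut, the long lists of shRNA-Ctrl E1 replicates 1 and 3 went from 93.1 to 78.5 and from 93.3 to 79.8. Replicate 2 of that group, a shorter list, went from 75.6 to 65.6. The shRNA-Ctrl E0 lists, shorter still, changed less. The peak scores were 424, 325 and 311 in shRNA-Ctrl at E0 and 455, 169 and 587 at E1. Scores are read here only by rank within a list, so these were not compared between libraries.

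For Grin1 the percentiles were 38.0, 32.6 and 31.5 in shRNA-Ctrl at E0 and 80.7, 60.0 and 80.9 at E1. All 3 E1 libraries were above all 3 E0 libraries, also at equal list length, where they were 39.8, 43.5 and 42.3 against 38.0, 23.9 and 19.6. In shRNA-cFos the states overlapped, with 44.9, 74.5 and 70.5 at E0 and 70.9 and 73.6 at E1.

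For Grin2a the percentiles were 0, 18.2 and 54.6 in shRNA-Ctrl at E0 and 52.1, 63.8 and 80.2 at E1, against 54.1, 79.9 and 61.8 in shRNA-cFos at E0 and 91.6 and 86.7 at E1. The shRNA-cFos E1 libraries were the highest of the 11. They stayed highest at equal list length, with 83.8 and 78.5, followed by shRNA-cFos E0 replicate 3 with 56.8.

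For Grin2b the percentiles were 53.4, 44.8 and 42.5 in shRNA-Ctrl at E0 and 85.6, 65.9 and 90.2 at E1, without overlap. They were 47.6, 81.7 and 43.2 in shRNA-cFos E0 and 72.9 and 73.1 in shRNA-cFos E1, where the single high E0 value came from the longest list of that group. With lists of equal length all shRNA-cFos E1 values (48.0 and 56.5) lay above all shRNA-cFos E0 values (31.0, 45.9 and 35.8). In shRNA-Ctrl they were then 55.2, 51.9 and 70.3 at E1 and 53.4, 37.7 and 32.5 at E0, which overlap at 1 library on each side.

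**Figure D2:**
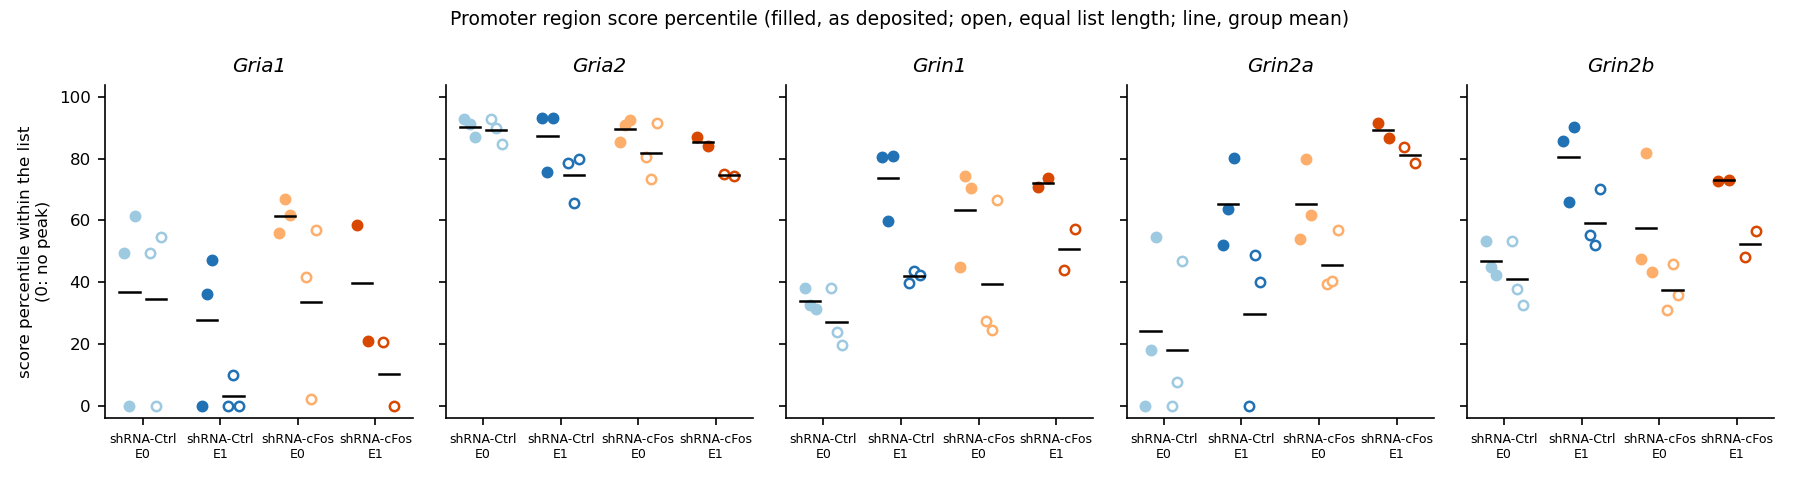
Score percentile of the promoter region within its list for each of the 11 libraries by group, as deposited (filled) and at equal list length (open), with the group mean as a line and 0 where no peak was called. Gria2 stays between 65.6 and 93.3 in all libraries, while Grin1, Grin2a and Grin2b have higher group means at E1 than at E0 in both shRNA groups.

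Whether these promoter percentiles differed between E1 and E0 was tested over all 11 libraries, with E0 and E1 labels permuted within each shRNA group and the difference taken as the mean of the differences in each shRNA group. The two-sided exact permutation test was run on the 60219 regions called in at least 3 libraries, with Benjamini-Hochberg adjustment over them. No region of the genome had an adjusted p under 0.05, and the smallest was 0.141. The exact p of this test cannot fall below 0.005. Over so many regions no single region could therefore pass by its own values alone. Before adjustment, exact p lay under 0.05 for 3 of the 5 promoters, Grin1, Grin2a and Grin2b, and for 16.9% of all regions tested. Grin1 was 24.4 percentile points higher at E1 (exact permutation p = 0.04, adjusted p = 0.247). Grin2a was 32.5 points higher (exact p = 0.02, adjusted p = 0.165) and Grin2b 24.6 points higher (exact p = 0.03, adjusted p = 0.214). Gria2 differed by -3.49 points (exact p = 0.345), and by -0.559 without shRNA-Ctrl E1 replicate 2. Gria1 differed by -15.5 points (exact p = 0.235), by -24.9 without shRNA-cFos E1 replicate 1 and by -6.02 without shRNA-cFos E1 replicate 2. With each library left out in turn, the exact permutation p reached 0.08 at Grin1, 0.05 at Grin2a and 0.0833 at Grin2b. The median difference was 9.22 points over all regions tested and 3.80 over the regions called in all 11 libraries, of which 82.1% were higher at E1. Of the regions called in all 11 libraries, 13.1% had an exact permutation p under 0.05 before adjustment.

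At equal list length the same test gave 2 of 5 promoters with an exact p under 0.05, beside 19.2% of 32274 regions. Grin2b was 16.3 points higher at E1 (exact permutation p = 0.025, adjusted p = 0.163) and Gria2 10.8 points lower, a difference of -10.8 (exact p = 0.03, adjusted p = 0.184). Grin1 differed by 12.96 points (exact p = 0.215), Grin2a by 23.6 (exact p = 0.09) and Gria1 by -27.3 (exact p = 0.085). The median difference was -0.919 points over all regions tested and -0.897 over those called in all 11 libraries, of which 41.0% were higher at E1. Of those called in all 11 libraries, 14.9% had an exact permutation p under 0.05 before adjustment. None of the 5 passed the adjusted test in either case, and none could have done so by its own values alone.

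The E1 difference of a promoter was also set between shRNA groups. The test permuted shRNA labels within E0 and within E1. This takes the shRNA groups as exchangeable in each state, so its p is not exact for the difference of effects alone. As deposited it was 39.8 points for Grin1 in shRNA-Ctrl and 8.94 in shRNA-cFos, and their difference was -30.9 (exact permutation p = 0.105, adjusted p = 0.686). The median of such differences was -19.1 points over all regions tested. It was -6.10 over those called in all 11 libraries, of which 16.8% were above 0. With lists of equal length the Grin1 values were 14.7 and 11.2 points, with a difference of -3.55 (exact p = 0.85). The medians were then 0.121 and 0.767 points. The other 4 promoters had exact p from 0.265 to 0.915 as deposited for this difference of effects.

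Between shRNA groups, with labels permuted within E0 and within E1, only Grin2a of the 5 promoters had an exact p under 0.05. It was 32.4 points higher in shRNA-cFos (exact permutation p = 0.02, adjusted p = 1) as deposited, where 2.43% of regions had such a p, and 39.4 points higher at equal list length (exact p = 0.025, adjusted p = 0.598), where 6.43% did. The values in shRNA-Ctrl E0 replicate 1, without a Grin2a peak, and in shRNA-Ctrl E1 replicate 1, which lost it at equal list length, entered as 0. The other 4 promoters differed by -1.24 to 18.3 points as deposited.

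Gria2 and Grin2a had more peaks in the whole window of 100 kb at E1 than at E0 as deposited, where the lists of shRNA-Ctrl E1 were also longer than those of shRNA-Ctrl E0. Gria2 had 2, 4 and 2 peaks in shRNA-Ctrl at E0 and 10, 5 and 7 at E1, against 4, 6 and 3 in shRNA-cFos at E0 and 7 and 7 at E1, so that every E1 library exceeded every E0 library of its shRNA group. Grin2a had 0, 2 and 2 peaks in shRNA-Ctrl at E0 and 7, 5 and 8 at E1, against 3, 6 and 2 in shRNA-cFos at E0 and 7 and 6 at E1. Its shRNA-Ctrl groups did not overlap, while 1 shRNA-cFos E0 library, the longest list of that group, reached the lower E1 value. Grin1 had 3, 4 and 4 peaks in shRNA-Ctrl E0 against 8, 6 and 7 in shRNA-Ctrl E1, but 4, 8 and 4 in shRNA-cFos E0 against 6 and 4 in shRNA-cFos E1. Gria1 (1 to 4 peaks) and Grin2b (2 to 5) had few peaks in any library.

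Tested as above over 23264 windows, the 5 gene windows and all tiles of 100 kb with a peak, 2 of 5 genes had an exact p under 0.05 for E1 against E0, beside 7.28% of all windows. The Gria2 window held 3.67 more peaks at E1 (exact permutation p = 0.01, adjusted p = 0.494) and the Grin2a window 4.08 more (exact p = 0.015, adjusted p = 0.494). Grin1 differed by 1.5 peaks (exact p = 0.22), Grin2b by 0.917 (exact p = 0.08) and Gria1 by 0.417 (exact p = 0.64). The median of the 5 was 1.5 peaks and that of all tiles 0.5. The gene windows held more peaks, with a mean per library of 2.18 (Gria1) to 5.27 (Grin1), against a median of 1.64 over tiles. The medians and the share of all windows therefore compare unlike densities. At equal list length none of the 5 genes had such a p, beside 6.86% of 19988 windows, and the Gria2 and Grin2a differences were 0.417 (exact p = 0.48) and 0.583 (exact p = 0.42). Gria2 then had 2 or 3 peaks in all 6 shRNA-Ctrl libraries. For shRNA-cFos against shRNA-Ctrl none of the 5 had such a p, beside 0.451% of windows as deposited and 2.05% at equal list length.

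**Figure D3:**
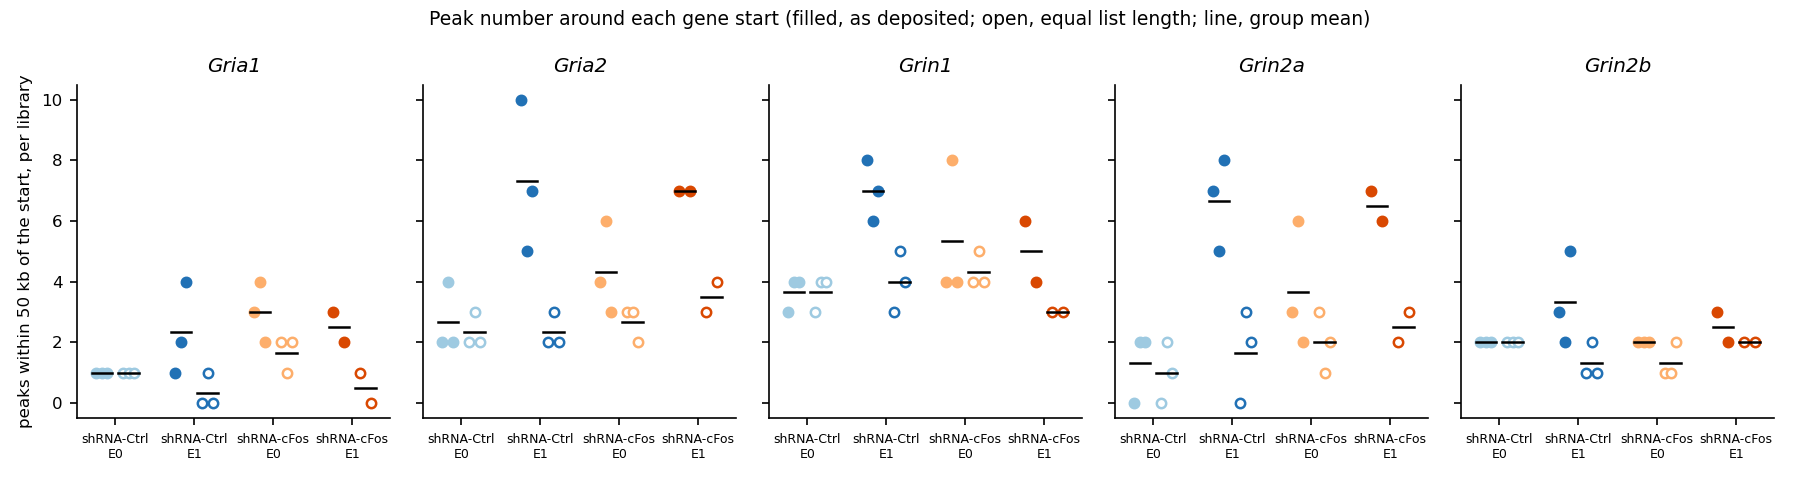
Number of peaks within 50 kb of each start in each library by group, as deposited (filled) and at equal list length (open), with the group mean as a line. The higher E1 counts at Gria2 and Grin2a, 5 to 10 peaks as deposited, are 0 to 4 at equal list length.

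Outside the promoters, recurrent regions were found at Grin1 and Gria2. Both regions called in all 11 libraries outside a promoter lay in the Grin1 window. The region chr2:25187670-25188762, 12.7 to 13.8 kb upstream of Grin1, was the strongest there, with percentiles from 74.4 to 96.6 and a mean of 88.8, above the Grin1 promoter in every library. Its percentiles were 74.4, 86.2 and 83.6 in shRNA-Ctrl at E0 and 95.1, 82.2 and 96.6 at E1, which overlap, against 88.6, 95.6 and 92.6 in shRNA-cFos at E0 and 91.3 and 90.0 at E1, which overlap too. The region chr2:25127259-25128716, 46.3 to 47.7 kb from the start and past the 3′ end of Grin1, had a mean of 70.2. The Grin1 locus is dense in genes. In RefSeq (GRCm38.p6) AA543186, Man1b1, Dpp7 and Uap1l1 follow on the upstream side and Lrrc26, Tmem210, Anapc2, Ssna1 and Tprn on the downstream side, so these regions cannot be assigned to Grin1. In the Gria2 window the region chr3:80577927-80579210, 27.8 to 29.1 kb into the gene body, was called in 10 of 11 libraries as deposited and at equal list length, with shRNA-Ctrl E0 replicate 3 the exception. Its mean percentile was 52.7, the highest of that window outside the promoter. In shRNA-Ctrl its percentiles were 56.1, 29.2 and 0 at E0 and 81.6, 56.3 and 68.3 at E1, so that every E1 library exceeded every E0 library as deposited, while 20.1 to 56.1 at E0 and 4.24 to 42.6 at E1 overlapped at equal list length where it was called. In shRNA-cFos they were 31.3, 77.9 and 37.7 at E0 and 71.5 and 70.2 at E1, which overlap as deposited. At equal list length the shRNA-cFos values were 9.46, 34.5 and 29.6 at E0 and 45.3 and 51.8 at E1, without overlap. Gria1 had no such region, and its strongest outside the promoter, chr11:56843777-56844399, 18.8 to 19.4 kb into the gene body, was called in 6 libraries with a mean of 14.0.

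Recurrence was counted over all windows. Of the 46 regions, 5 (10.9%) were called in all 11 libraries and 15 (32.6%) in 1 library, against 9.16% and 37.9% of all regions. At Grin2b the other 6 regions were each called in a single library. At equal list length 19 regions were left, of which 5 (26.3%) were called in all 11 libraries and 6 (31.6%) in 1 library. Over all regions these shares were 16.4% and 32.9%. Grin2b then had its promoter region alone.

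**Figure D4:**
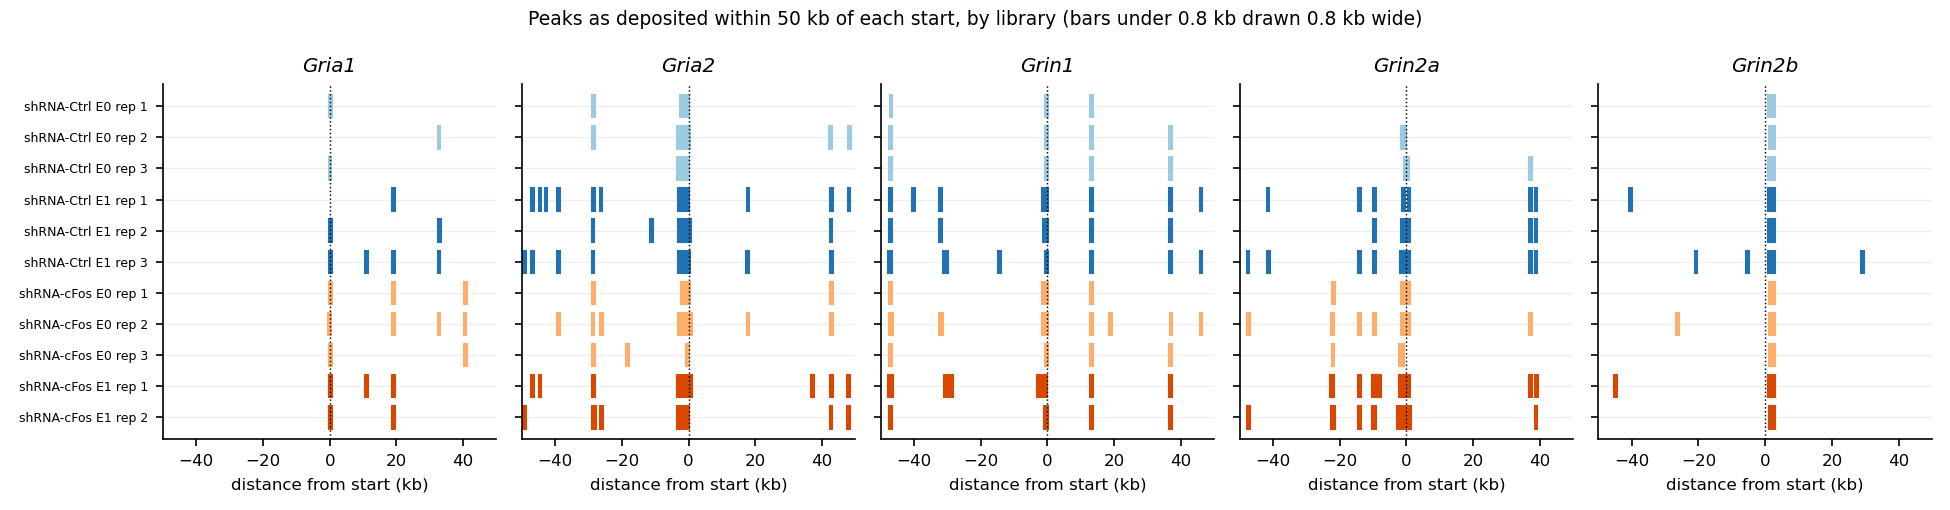
Peaks as deposited within 50 kb of the 5 starts, 1 row per library, coloured by group, with distance from the start in kb on the x axis. Grin1 shows 3 columns of peaks that run through all 11 libraries, and Grin2b only the one next to its start.

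Of the 46 regions, a few separated groups of libraries. A region separates a pair of groups here when all libraries of 1 group had a peak in it and those of the other had none. In shRNA-Ctrl, 2 of 46 regions (4.35%) were found only at E1, beside 6.04% of all regions, and none only at E0, beside 0.0442%. Without shRNA-Ctrl E1 replicate 2 the regions that separated the shRNA-Ctrl states numbered 9. Fewer libraries must then share a call, and the share over all regions was not counted with a library left out. Both of the 2 regions found only at E1 with all libraries were at Grin2a. The first, chr16:10033575-10034233, 38.6 to 39.2 kb upstream, had percentiles of 49.4, 27.3 and 66.3 in shRNA-Ctrl E1 and 53.8 and 46.4 in shRNA-cFos E1. All 5 E1 libraries had a peak there and the 6 E0 libraries had none, the only one of the 46 to do so, beside 0.857% of all regions. The second, chr16:9984661-9986031, 8.97 to 10.3 kb into the gene body, had percentiles of 35.4, 0.0775 and 70.7 in shRNA-Ctrl E1. The second of these values came from a peak with a score of 50.1, next to the lowest score in any list, which is 50. Both shRNA-cFos E1 libraries also had it (36.0 and 28.3), as did shRNA-cFos E0 replicate 2 (19.9).

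In shRNA-cFos, 2 of 46 regions were found only at E1, beside 1.96% of all regions. They were the upstream region of Grin2a just described and chr3:80654853-80655369, 47.9 to 48.4 kb upstream of Gria2. The latter was weak, with percentiles of 15.6 and 9.65 in shRNA-cFos E1, and was also called in shRNA-Ctrl E0 replicate 2 and shRNA-Ctrl E1 replicate 1. Only at E0 was 1 region (2.17%, beside 0.548% of all regions), chr11:56865340-56865863, 40.3 to 40.9 kb into the gene body of Gria1. Its peaks came from the 3 shRNA-cFos E0 libraries, at percentiles of 24.1, 16.3 and 20.6, and from no other library. Together 3 regions separated the shRNA-cFos states, and 11 did so without shRNA-cFos E1 replicate 2 and 5 without shRNA-cFos E0 replicate 2. The last 2 counts have no share over all regions beside them, and a single shRNA-cFos E1 library then stood for its group in the first.

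Between shRNA groups at E0, 2 of 46 regions were found only in shRNA-cFos, beside 1.11% of all regions, and none only in shRNA-Ctrl, beside 0.0217%. One was the Gria1 region. The other, chr16:9972111-9973530, 21.5 to 22.9 kb into the gene body of Grin2a, had percentiles of 35.7, 65.5 and 31.7 in shRNA-cFos E0 and 44.2 and 41.6 in shRNA-cFos E1. It was called in all 5 shRNA-cFos libraries and in none of the 6 shRNA-Ctrl libraries, as were 0.0233% of all regions. At E1 it was the 1 region found only in shRNA-cFos, beside 0.534% of all regions, and none was found only in shRNA-Ctrl, beside 1.59%. Regions that separated the shRNA groups at E1 numbered 5 without shRNA-Ctrl E1 replicate 2 or without shRNA-cFos E1 replicate 2, 3 without shRNA-Ctrl E1 replicate 1, and 2 without shRNA-Ctrl E1 replicate 3 or without shRNA-cFos E1 replicate 1. For these counts too the share over all regions was not counted.

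**Figure D5:**
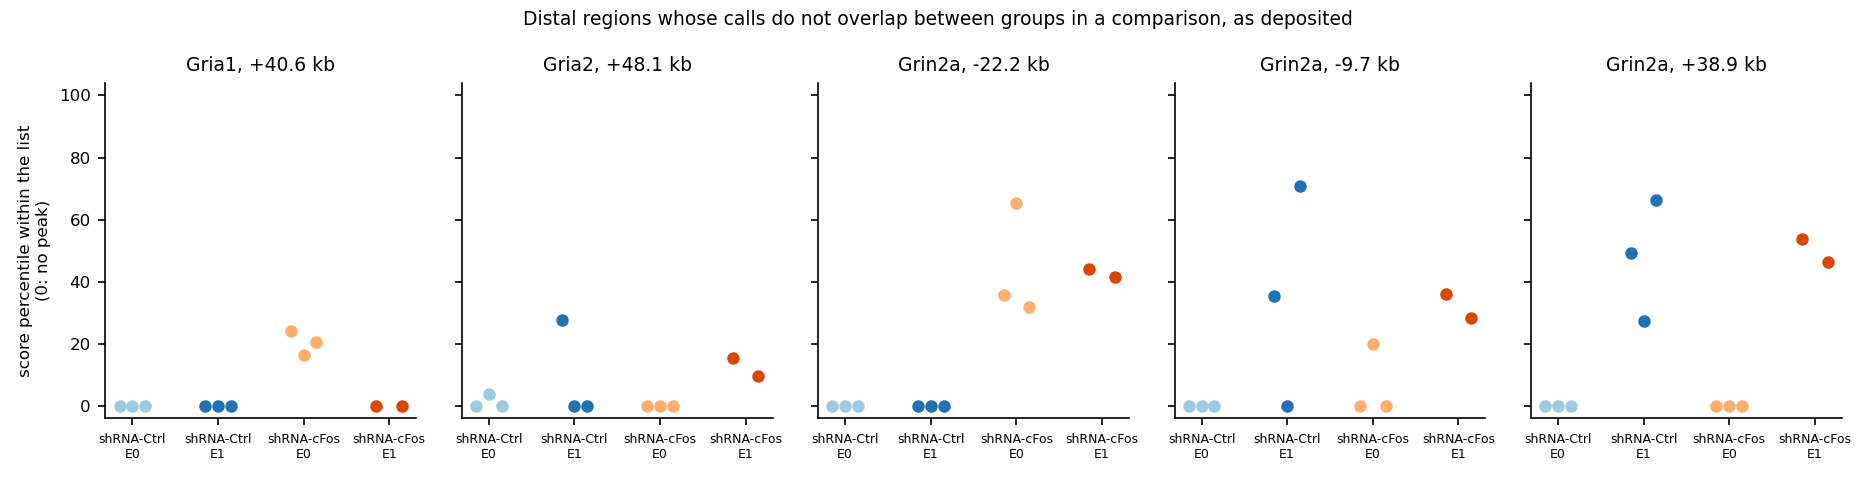
Score percentile within the list for each library (0 for no peak) at the 5 distal regions that separated a pair of groups as deposited, titled by gene and by the distance in kb of the region's middle from the start. The upstream Grin2a region has peaks at E1 alone, and the Grin2a region between 21.5 and 22.9 kb into the gene body has peaks in shRNA-cFos alone.

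Most of these patterns were lost at equal list length, which drops the peaks of low rank. The upstream Grin2a region was then called in both shRNA-cFos E1 libraries, at percentiles of 11.4 and 13.4, and in no other library. It was the 1 region of 19 found only at E1 in shRNA-cFos (3.39% of all regions) and only in shRNA-cFos at E1 (1.7%). No region of the 5 windows was found only at E1 in shRNA-Ctrl, beside 3.51% of all regions. The gene-body region of Grin2a was called in 3 of 5 shRNA-cFos libraries and in no shRNA-Ctrl library.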

How the data were processed

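Per the labels' protocols, ATAC-seq libraries were made from microdissected dentate gyrus of individual mice. The submitters' processing notes name Bowtie2 and the build mm9. The 11 deposited peak lists, whose peak names carry the name of MACS, give a score per peak on a scale not given in the sources used here. Filters, the correction for the transposase and caller settings are not given either. Here the score orders the peaks of 1 list and sets 1 minimum.

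Peaks elsewhere than on chromosomes 1 to 19 and X (554) were left out. Starts were taken to 1 kb. A promoter peak lay within 1 kb of the start. The promoter region held the start or, for Grin2b, was the nearest within 1 kb. A test permuted labels over 200 arrangements, with 0.005 as its smallest p. Alternatives were a score of at least 100, equal list length, windows of 25 kb on either side, 50% of the region covered, omission of each library in turn and a block for the replicate number. A promoter interval of 3 kb and the test of the difference of effects were added after seeing the data. The regions named held a start, were called in all libraries, separated groups or were the strongest of a window outside the promoter. Genes, lists and tests were chosen with earlier results of these data known. Starts in mm9 of other receptor genes and of marker genes were not at hand, so these were not analysed here. Merging and calling were checked on regions planted in the lists. The test of peak number was checked on simulated tiles whose mean was the same in all libraries, apart from planted tiles raised at E1. Unequal list lengths, the percentile test and the test of the difference of effects were not simulated. The tools were pandas 2.3.3, numpy 2.4.6 and matplotlib 3.10.9 under Python 3.11.15, and scipy 1.17.1.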

Additional observations from a re-analysis of the deposited data

How the results depend on the processing

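Over 75 alternatives each for the 5 windows and the 5 promoters, the E1 difference kept its direction in 70 and 74, and the lowest adjusted p were 0.189 and 0.104 (exact permutation tests). For the shRNA difference the direction held in 60 and 65 of 70, with no adjusted p below 0.598.

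The E1 difference in peak number turned at Gria1 to -0.583 with a score of at least 100, and at equal list length to -0.917 at Gria1 and -0.5 at Grin1. With 50% of the region covered the Gria2 promoter difference turned to 11.9. The shRNA difference in peak number turned with windows of 25 kb at Gria2 (-0.0833) and Grin1 (0.25), and with a score of at least 100 at Grin1 (0.667) and Grin2a (-0.417). At Grin2b both differences in peak number were 0 at equal list length. The shRNA difference of the Grin2b promoter turned to -5.25 at equal list length. With each library left out in turn, the E1 difference ranged from 0 to 0.75 peaks at Gria1, from -24.9 to -6.02 points at the Gria1 promoter and from -4.98 to -0.559 at the Gria2 promoter, and the shRNA difference from -0.75 to 0 peaks at Grin2b. The shRNA difference ranged from -0.833 to 0.333 peaks at Grin1, from -4.17 to 0.253 points at the Gria2 promoter and from -4.52 to 5.1 points at the Grin2b promoter.

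With a score of at least 100, promoter peaks were found in 6 libraries at Gria1, 7 at Grin1, 9 at Grin2a, 3 at Grin2b and 11 at Gria2. With 50% of the interval covered they were found in 0 libraries at Gria1 and Grin2b, 2 at Grin1, 7 at Grin2a and 11 at Gria2. With 3 kb on either side 11 libraries had one at Grin2b. Regions that separated shRNA-Ctrl E1 from shRNA-Ctrl E0 (2) numbered 0 at equal list length, 1 in windows of 25 kb and 1 with 50% covered, and 2 to 9 with a library left out, the most without shRNA-Ctrl E1 replicate 2. Those between the shRNA-cFos states (3) numbered 0 with a score of at least 100, 1 at equal list length, 0 in windows of 25 kb and 5 with 50% covered, and 3 to 11 with a library left out, the most without shRNA-cFos E1 replicate 2. Those between shRNA groups at E0 (2) numbered 0 with a score of at least 100, 0 at equal list length, 1 in windows of 25 kb and 1 with 50% covered, and 2 to 3 with a library left out. At E1 (1) they numbered 0 with a score of at least 100 and 3 with 50% covered, and 1 to 5 with a library left out, the most without shRNA-Ctrl E1 replicate 2 or shRNA-cFos E1 replicate 2. Fewer libraries must share a call when 1 is left out, which raises such counts, and the share over all regions was not counted there. Nor was that share counted with a score of at least 100, in windows of 25 kb or with 50% covered. Whether these counts rose or fell more than those of all regions is therefore unknown.

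Same-numbered libraries are separate mice and are not said to be paired. Their deviations from the group mean correlated at -0.0813, 0.0344 and 0.15 in shRNA-Ctrl and at -0.0991 and -0.16 in shRNA-cFos. Differently numbered shRNA-Ctrl libraries ranged from -0.124 to 0.0815. With 2 shRNA-cFos E1 libraries the deviations of 1 are the exact opposite of the other, so the shRNA-cFos values cannot decide on pairing. Whether the numbers pair libraries was therefore not settled. With the replicate number as a block, which drops shRNA-cFos E0 replicate 3 and allows 32 permutations, the E1 differences were 0.167, 3.33, 1.17, 3.67 and 0.917 peaks at Gria1, Gria2, Grin1, Grin2a and Grin2b, and -15.4, -2.78, 26.2, 31.6 and 21.0 points at their promoters. All had an adjusted p of 0.653 or more in this exact permutation test. Its smallest possible exact p is 0.0625, so no adjusted p under 0.05 could arise there.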

Other observations

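Of the 13 other ionotropic glutamate receptor genes, 8 had a promoter in the RefSeq table. Their 250 bases before the start held 2 CG dinucleotides at Grin3b, an NMDA receptor subunit, to 42 at Grik3, a kainate receptor subunit, with a median of 15.5, beside 19 at Gria2 and 27 at Grin1. TGANTCA was found in 1 of the 8, Grin3b, and GGGCGG in 4, Grik3, Grik4, Grik5 and Grin2c. CACGTG, which Grin1 held, was found in none of the 8. These are descriptions of sequence, with no accessibility read at these genes.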
